A study of Mus musculus with 6 samples.

Results

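ADAM metalloproteases are membrane-anchored proteins that combine a zinc protease with a disintegrin domain. Their RNA was described here in B16.F10, a pigmented melanoma line from the mouse. Members were all transcripts whose gene symbol is Adam followed only by digits, which leaves out the secreted Adamts proteases. The rule found 10 transcripts of 5 genes, Adam12, Adam9, Adam15, Adam10 and Adam17, among 15905 transcripts of 8513 genes. The annotation used here holds 27 mouse genes with such symbols. The other 22, among them Adam8, Adam19, Adam28 and Adam33, had no transcript listed under their symbol, so they could not be compared. How transcripts were filtered before listing is not given. The family was selected on the fold and adjusted p of Adam12 between simvastatin and control, the values that showed its fall, so those values are a description and support nothing further.

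The study compared B16.F10 cells, labelled as wild type, after 24 h with 3.5 µM simvastatin against untreated cells, with 3 samples in each group. Simvastatin is a statin, an inhibitor of HMG-CoA reductase, and so limits the mevalonate from which cholesterol and isoprenoid lipids are made. For each transcript the files hold a single value per group and none per sample, so no SD, no range over samples and no depth can be given, and whether the samples of the groups overlap cannot be stated. B16.F10 is a single established line, and the labels name no vehicle for the untreated cells. All 10 melanocyte markers on the list used were measured, with values that summed to 8787 with simvastatin and 6364 in control on the most abundant transcripts in the authors' deposited table, and 9 of the 10 had a higher value with simvastatin, where 51.3% of all genes did. The authors called 2 of them, Gpr143 and Oca2, as higher, where they called 6.91% of all genes so on these transcripts. The 2 had adjusted p values of 0.05 and 0.069 as printed there, and a second deposited table gives that of Gpr143 with more digits as 0.0496. Counts here use the adjusted p as printed, so Gpr143 was not counted as under 0.05. The part of these marker values in the ADAM results was not tested. No marker on the lists for fibroblasts and for endothelial or epithelial cells was found in the table. On the macrophage and leukocyte list 1 of 10 was found, Cd68, at 0.93 with simvastatin and 0.37 in control in the authors' deposited table.

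ADAM proteins are made as inactive precursors, and in most of them a proprotein convertase removes the prodomain that covers the active site. The mature proteases cut other membrane proteins close to the cell surface, a step called shedding that frees growth factors, cytokines and adhesion molecules. ADAM10 and ADAM17 are the main sheddases of many cells, and both act on Notch and on ligands of the EGF receptor. ADAM12 is low in most adult tissues and is found in regenerating muscle and in several human tumours. Its long cytoplasmic tail binds SH3 domain proteins such as Src.

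The active site links the measured transcripts to the enzyme, so the stretch that codes for it is shown for the 4 genes that have a listed Ensembl transcript holding it. Each run is 36 coding bases from GENCODE mouse release 21 (GRCm38), on the coding strand, and the capitals mark the codons of the 3 zinc-binding histidines and of the catalytic glutamate.
Adam12: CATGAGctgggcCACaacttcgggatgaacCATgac
Adam9: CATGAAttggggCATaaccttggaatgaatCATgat
Adam10: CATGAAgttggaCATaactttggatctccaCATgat
Adam17: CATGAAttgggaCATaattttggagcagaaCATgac
The Adam12 stretch lies at chr7:133961155-133961190 on the minus strand, in exon 11 of 23, and begins at codon 348 of 903. Those of Adam9 (chr8:24990323-24990358) and Adam17 (chr12:21336729-21336764), both on the minus strand, also lie in exon 11. That of Adam10, on the plus strand, is split over exons 9 and 10 (chr9:70754296-70761588, with the intron). The Adam12 stretch shared 27 of 36 bases with Adam9, 24 with Adam17 and 22 with Adam10. Adam15 was listed only as 3 models assembled from reads, with no sequence in the files, and is not shown.

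Adam12, the ADAM protease also called meltrin alpha, fell with simvastatin. Its 1 listed transcript had a value of 0.52 with simvastatin, against 3.31 in control, in the authors' deposited table, where the fold is -6.41 (the minus sign marks a fall) and the adjusted p 0.018. No source used here names the unit of these values. The transcript is the full-length protein-coding form of 7675 bases (chromosome 7, 133883199 to 134225097, minus strand), 1 of 7 annotated for the gene, and it holds the active-site stretch. Since RNA was measured in bulk, fewer cells that express Adam12 and less Adam12 RNA per cell cannot be told apart.

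The size of the fall rests on a low treated value. The log2 ratio of simvastatin to control was -2.67 from the group values as printed, and -1.50 with 1 added to each, a 2.84-fold lower level. That second deposited table, in which the authors set mouse genes beside a human cell line, lists Adam12 with a log2 fold change per gene of -1.51. It gives the adjusted p with more digits, as 0.0185. How that log2 fold change was made is not given. It lies next to the -1.50 from the group values with 1 added, so it is not taken as a second measurement. The ratio as printed and the ratio with 1 added both put the gene lower with simvastatin, with folds that differ by more than 2 times.

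Adam12 was among the larger falls. Among the 157 lower transcripts past an adjusted p of 0.05 in the authors' deposited table, 22 had a larger fall. Many genes are listed with several transcripts, so the 4535 genes with 1 listed transcript were also ranked alone. Of these, 79 (1.74%) were lower past the threshold, and 2 had a larger fall than Adam12, Poli, a DNA polymerase gene, and the histone gene Hist1h1a, both named after their values were seen. Both had treated values below that of Adam12, at 0.03 and 0.2 in the authors' deposited table. Over all transcripts, 2 had a smaller adjusted p than Adam12 in the authors' deposited table. Of the 8 at or below its value, 2 were lower with simvastatin.

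**Figure D1:**
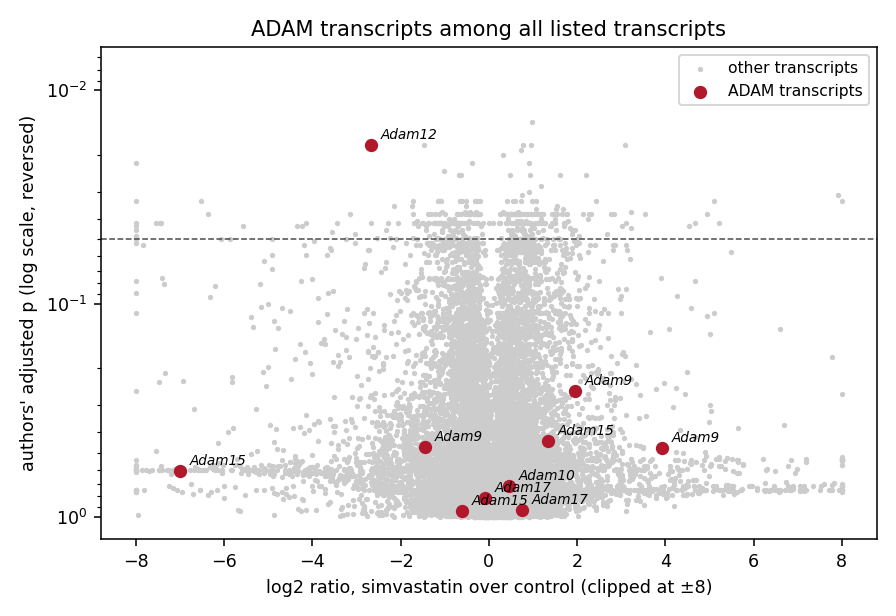
Log2 ratio of simvastatin to control (x axis, clipped at ±8) against the authors' adjusted p (log scale, reversed) for each listed transcript with both values above 0, with the dashed line at 0.05. Adam12 at -2.67 and 0.018 is the one ADAM transcript above the line, and the next, of Adam9, stands at 0.257.

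No other ADAM gene passed the threshold. On the most abundant transcript of each gene, 1 of 5 ADAM genes was lower and 0 were higher at an adjusted p under 0.05, where 1.39% of all genes were lower and 1.76% higher in the authors' deposited table. Counted by transcript, 1 of 10 was lower and 0 were higher, where 0.987% of all transcripts were lower and 1.11% higher. The authors' own call reaches looser adjusted p values, yet it leaves out Itgb1, with an adjusted p of 0.042 and a fold of only 1.19. It also covered 1 of the 10 ADAM transcripts, lower, where it marked 4.37% of all transcripts as lower and 5.13% as higher. The family was chosen for that 1 gene, so nothing is read from these counts. The log2 ratio of Adam12 minus the median of the other 4 genes was -2.86. That median was 0.19, with a range from -1.46 for Adam9 to 1.35 for Adam15. The median over all genes was 0.02.

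Adam10, the sheddase of Notch and of N-cadherin, was listed with 1 full-length coding transcript (chromosome 9, 70678997 to 70780229, plus strand). It had 36.7 with simvastatin and 26.7 in control in the authors' deposited table, a fold of 1.38 with an adjusted p of 0.713. The value was higher with simvastatin but did not pass.

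Adam17, which releases tumour necrosis factor and many EGF receptor ligands, had 2 listed transcripts. The larger had 17.5 with simvastatin and 18.7 in control in the authors' deposited table, with an adjusted p of 0.812. It is annotated as a target of nonsense-mediated decay, with a reading frame of 222 codons that does not reach the active-site stretch. The full-length coding form of 827 codons had 2.44 with simvastatin and 1.46 in control in the authors' deposited table, with an adjusted p of 0.924. It thus held 12.2% of the gene's total with simvastatin and 7.25% in control. Most of the value listed for Adam17 was assigned to a form without the coded active site. The 2 forms are close in make-up, with 19 exons each and 4423 and 4443 bases. How reads were divided between them is not given, and the split has no error available. The gene totals, 19.98 with simvastatin and 20.15 in control, differed by 0.84%.

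Adam9, or meltrin gamma, a widely expressed relative of Adam12, had 3 listed transcripts with values on opposite sides. The protein-coding form (chromosome 8, 24949611 to 25016927, minus strand) had 15.9 with simvastatin and 43.5 in control in the authors' deposited table, a fold of -2.74 (adjusted p = 0.468). An assembled model had 32.6 with simvastatin and 8.42 in control in the authors' deposited table, a fold of 3.88 (adjusted p = 0.257). Its unadjusted p of 0.049 was the smallest among the ADAM transcripts after that of Adam12. The third, a short fragment marked for nonsense-mediated decay, had 2.88 with simvastatin and 0.19 in control in the authors' deposited table, with an adjusted p of 0.476.

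None of the 3 forms of Adam9 passed, and their sum was nearly level. Gene totals were 51.4 with simvastatin and 52.1 in control, a difference of 1.42%. The annotated coding form made up 30.9% of the total with simvastatin and 83.5% in control, and the assembled model 63.5% with simvastatin and 16.2% in control. No sequence was available for the assembled model, so whether it also codes for the protein is not known. Among the 3978 genes with at least 2 listed transcripts, 203 (5.10%) had their 2 most abundant ones at least 2-fold apart from control in opposite directions, and in 52 (1.31%) the total also stayed within 10%. Adam9 is 1 of these 52, and these limits were set after its values were seen.

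Adam15, or metargidin, whose disintegrin domain binds integrins in human cells, was listed as 3 assembled models. The most abundant had 7.20 with simvastatin and 2.83 in control in the authors' deposited table, a fold of 2.55 (adjusted p = 0.441). The second had 2.54 with simvastatin and 3.87 in control, and the last 0.02 with simvastatin and 2.58 in control in the authors' deposited table, with adjusted p values of 0.939 and 0.608. No model passed, and the totals, 9.76 with simvastatin and 9.28 in control, differed by 5.17%.

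**Figure D2:**
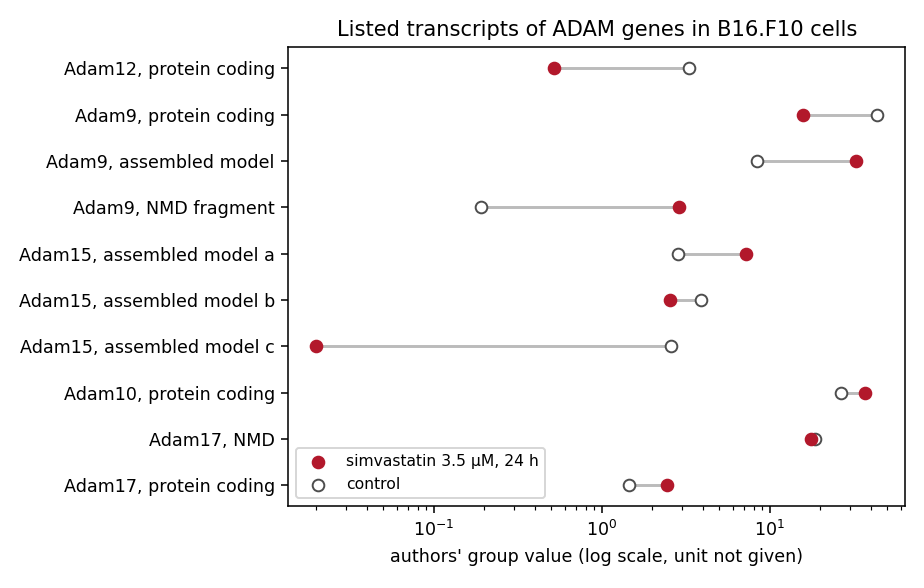
Group values (log axis, unit not given) of the 10 listed ADAM transcripts, with filled points for simvastatin and open points for control; each point is the authors' single value for a group, with no error available. Adam12 and the coding form of Adam9 lie lower with simvastatin, while the Adam9 assembled model lies higher.

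Summed over transcripts, the other 4 genes lay close together. Their log2 ratios of gene totals were 0.46 for Adam10, 0.07 for Adam15, -0.01 for Adam17 and -0.02 for Adam9, with a median of 0.03. Adam12, with 1 transcript, stayed at -2.67. Whether the values are per length is not given, so levels were not ordered between genes, and the sums hold only if the transcripts of a gene share a scale. Neither gene totals nor the differences between them could be tested without values per sample.

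**Figure D3:**
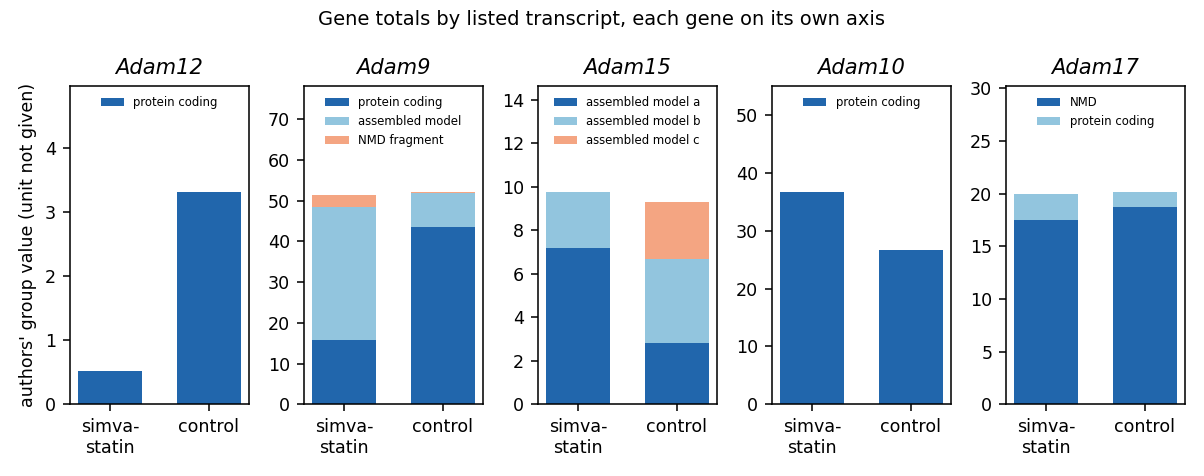
Gene totals as stacked group values (unit not given), simvastatin left of control, each gene on its own axis from 0; colours separate the listed transcripts of a gene. The Adam9 bars stand at 51.4 with simvastatin and 52.1 in control although their make-up differs, and the Adam12 bars stand at 0.52 with simvastatin and 3.31 in control.

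Proteins that process, carry or inhibit ADAM proteases were measured for 13 of 20 listed genes. None passed an adjusted p under 0.05, with a median log2 ratio of 0.28 beside 0.02 over all genes. The members of highest value, Pdia3 and Pdia6, disulfide isomerases of the endoplasmic reticulum, had 204 and 132 with simvastatin and 235 and 153 in control in the authors' deposited table, with adjusted p values of 0.61 and 0.503. On the most abundant transcripts the authors' own call marked 6.91% of all genes as higher and 5.5% as lower, and it covered 4 members on the higher side and 0 on the lower. The members named from here to the end of the paragraph were chosen after their values were seen. The 4 are Tspan5 and Tspan17, tetraspanins that carry ADAM10 to the cell surface, Rhbdf2, an iRhom that carries ADAM17, and Furin, the convertase that removes prodomains. Their folds were 1.67, 1.60, 1.53 and 1.54 in the authors' deposited table, with adjusted p values of 0.055, 0.098, 0.078 and 0.194. Frmd8, whose protein stabilises the iRhoms, lay on the other side without being called, at 16.01 with simvastatin and 19.88 in control, a fold of -1.24 in the authors' deposited table, with the same adjusted p as Rhbdf2, 0.078. The inhibitor genes Timp1, Timp2 and Timp3 had 1.75, 44.1 and 9.28 with simvastatin and 2.40, 51.2 and 8.13 in control in the authors' deposited table, and none passed.

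Of 20 listed binding partners of the ADAM12 tail and of adhesion proteins linked to it, 15 were measured. Here 2 were higher past the threshold and 0 lower, where 1.76% of all genes were higher and 1.39% lower. The median log2 ratio was 0.26. Itgb3, the integrin beta 3 subunit, rose to 42.0 with simvastatin, against 5.85 in control, a fold of 7.18 in the authors' deposited table, with an adjusted p of 0.038. Itgb1, the integrin beta 1 subunit, rose 1.19-fold in the authors' deposited table, with an adjusted p of 0.042. The authors' own call marked 6.91% of all genes as higher and 5.5% as lower. Here it was balanced, with 1 member higher, Itgb3, and 1 lower, while Itgb1 was not called. The lower one, named after its values were seen, is the adhesion proteoglycan gene Sdc1, at 12.7 with simvastatin and 20.2 in control, a fold of -1.60 in the authors' deposited table, with an adjusted p of 0.069.

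Surface proteins that ADAM proteases can shed were measured for 12 of 35 listed genes, and none passed in either direction. The median log2 ratio was 0.31, and 11 of the 12 had a higher value with simvastatin, where 51.3% of all genes did. The authors' own call covered 2 members on the higher side and 0 on the lower, where it marked 6.91% of all genes as higher and 5.5% as lower. Bsg, for basigin, stood at 223 with simvastatin and 223 in control, and Cd44, the hyaluronan receptor, at 147 with simvastatin and 114 in control in the authors' deposited table, with adjusted p values of 0.839 and 0.058. Of 14 EGF receptor family genes and ligands 2 were measured, and the receptor gene Erbb3 rose to 44.5 with simvastatin, against 13.2 in control, a fold of 3.38 in the authors' deposited table, with an adjusted p of 0.038. In the Notch list, 6 of 19 were measured and none passed, with a median log2 ratio of 0.30. Its members of highest value were subunits of gamma-secretase, which cuts Notch after ADAM10. Ncstn had 41.3 with simvastatin and 33.5 in control, and Psenen 27.6 with simvastatin and 28.2 in control in the authors' deposited table, with adjusted p values of 0.112 and 0.548.

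Among other metalloproteases, 1 secreted relative of the family was higher past the threshold. Of 46 listed matrix metalloproteases, Adamts proteases and related enzymes 7 were measured, with 1 higher and 0 lower past the threshold and a median log2 ratio of 1.41. A higher value with simvastatin was seen for 6 of the 7, where 51.3% of all genes had one. By the authors' own call 3 were higher and 0 lower, where it marked 6.91% of all genes as higher and 5.5% as lower. Adamts14, which trims procollagen, rose to 8.52 with simvastatin, against 3.62 in control, a fold of 2.36 in the authors' deposited table, with an adjusted p of 0.045. Adamts1, which cuts versican and aggrecan, and the related Adamtsl4 had 80.6 and 11.0 with simvastatin and 39.6 and 3.32 in control in the authors' deposited table. Both missed the threshold (adjusted p = 0.059 and 0.052) but were called higher by the authors, as was Adamts14. The membrane protease gene Mmp14 had 53.8 with simvastatin and 62.2 in control in the authors' deposited table, with an adjusted p of 0.225. Adamts1, Adamtsl4 and Mmp14 were named after their values were seen. The lists were drawn up with some results of these data known, so their counts stand beside the shares of 1.76% higher and 1.39% lower over all genes and carry no test.

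TGF-beta, a known inducer of ADAM12 in several cell types, was covered by a list of 17 genes, of which 7 were measured and none passed. All 7 had higher values with simvastatin, where 51.3% of all genes did, with a median log2 ratio of 0.35. Smad4, which carries the signal to the nucleus, and Ltbp3, which binds latent TGF-beta, had 26.3 and 14.8 with simvastatin and 25.0 and 9.87 in control in the authors' deposited table, with adjusted p values of 0.748 and 0.053. The authors' own call, which marked 6.91% of all genes as higher, covered 1 member, the ligand gene Tgfb1, named after its values were seen. Tgfb1 had 5.29 with simvastatin and 2.55 in control, a fold of 2.07 in the authors' deposited table, with an adjusted p of 0.195.

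**Figure D4:**
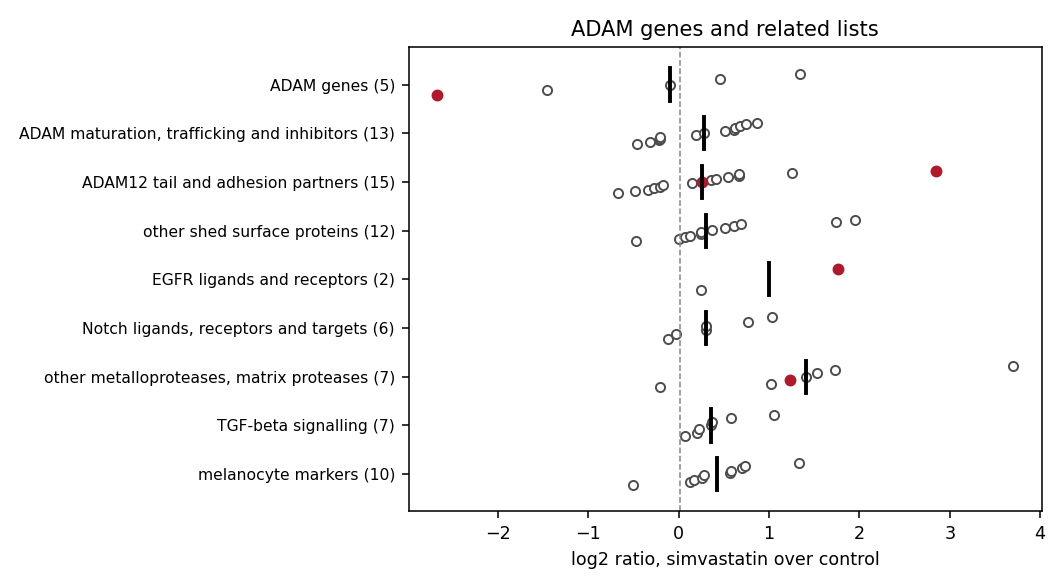
Log2 ratio of simvastatin to control on the most abundant transcript for each measured gene of the ADAM family and of related lists. The number measured is in parentheses. Filled points passed an adjusted p under 0.05 as printed to 3 decimals, bars mark list medians and the dashed line the median of all genes (0.02). Adam12 is the lowest point drawn, at -2.67, while Itgb3, Erbb3, Itgb1 and Adamts14 are the filled points on the higher side. Gpr143, a melanocyte marker printed at 0.05, is drawn open.

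Outside the family, the 5 genes whose log2 ratio was closest to that of Adam12, among 7439 named genes with both values at least 1, were Noc2l, March8, Exosc10, Cenpb and Txn1. Likeness here is the distance between the log2 ratios of group values, which was between 0.07 and 0.15. None of the 5 passed the threshold, with adjusted p from 0.14 to 0.82 in the authors' deposited table, while the authors' own call marked 3 of them, Noc2l, Exosc10 and Txn1, as lower. Adam12 itself, at 0.52 with simvastatin, is under the limit of 1, and genes under it were not searched. Among those left out is N4bp2l2, named after its values were seen, at 0.63 with simvastatin and 3.63 in control. Its fold was -5.75, that of Txn1, and it passed with an adjusted p of 0.049 in the authors' deposited table. With 1 value per group, each gene has only 1 ratio to compare.

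The authors' human comparison, in a deposited table of 158 genes, sets the mouse change beside a z-score from human A375 melanoma cells given 10 µM simvastatin. Every gene in it has an adjusted p under 0.05 in the mouse cells, so counts and ranks within it cover changed genes only. Adam12 is the 1 ADAM gene in it. The z-score of ADAM12 was 0.645 in the authors' deposited table, while Adam12 was lower in the mouse cells. Of the 64 genes lower in mouse, 46 had a z-score below 0 and 18, Adam12 among them, above 0, with a median of -1.51. The z-scores ran from -9.22 to 6.04, and 50 genes had one closer to 0 than ADAM12. Only 1 gene in that table, Poli, had a larger fall in mouse, and the next gene, N4bp2l2, lay beside Adam12, both at -1.51.

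**Figure D5:**
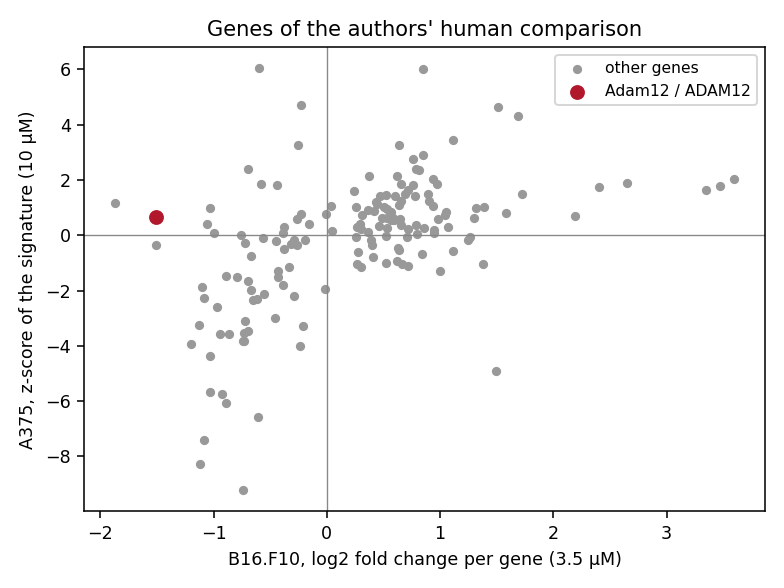
Log2 fold change per gene in B16.F10 cells (x axis) against the z-score of the A375 signature (y axis) for the 158 genes of the authors' human comparison. Adam12, at -1.51 and 0.645, lies left of 0 in mouse and just above 0 in human cells.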

How the data were processed

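RNA sequencing had been done on 6 samples, grouped by their titles into 3 with simvastatin and 3 controls. The submitters' processing notes name HISAT2 2.0.5, StringTie and the build GRCm38 (mm10). How reads were counted, filtered and tested is not given in any source used here. The main table holds, per the file headers, a group value for each transcript (treated here as a signal of unknown unit, printed to 2 decimals), a signed fold score and a p-value, raw and adjusted, all made by the authors. The authors' human comparison holds a deposited log2 fold change per gene and a z-score. A row with a group at 0 (103 transcripts, none of an ADAM gene) had no ratio.

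No test was refitted: calls use the authors' adjusted p under 0.05, as printed to 3 decimals. A value just under the threshold that is printed as 0.05, such as that of Gpr143, was not counted. Counts and shares past the threshold can therefore be too low. With samples called biological replicates only in the series text, these p-values may reflect only technical spread. A gene stands for its transcript with the highest mean over both groups, or for the sum over transcripts. The log2 ratio divides the simvastatin value by the control value. Coding sequences came from GENCODE mouse release 21 with Biopython 1.88, and tables from pandas 2.3.3 in Python 3.11.15. The code for counting and ratios was checked on control values with planted changes and preset adjusted p values, which does not test the authors' calls.

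The members and gene lists were chosen with earlier results of these data known. Named genes were the family, up to 4 members per list past the threshold or else the 2 of highest value, and the 5 nearest in log2 ratio. Other genes, among them those named for the authors' own call, were named after their values were seen. Alternatives were gene totals, 1 added to each value, scaling to equal sums, Ensembl transcripts only, a mean of at least 1, and other thresholds.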

Additional observations from a re-analysis of the deposited data

How the results depend on the processing

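Counted on the most abundant transcript of each gene, the 1 ADAM gene past the threshold stayed 1 under the authors' own call, an unadjusted p under 0.05, an adjusted p under 0.1, a mean of at least 1 and Ensembl transcripts only. On any transcript of a gene it stayed 1 at an adjusted p under 0.05 and was 2 at an unadjusted p under 0.05, an alternative chosen after seeing the data, where the Adam9 assembled model joined Adam12. On the most abundant transcripts, 1160 of all 8513 genes were higher and 1268 lower at an unadjusted p under 0.05. The authors' own call marked 6.91% as higher and 5.5% as lower. Adam12 is in each of the ADAM counts and the family was chosen for it, so nothing is read from them. The log2 ratio of Adam12 was -1.50 with 1 added to each value and -2.47 with group values scaled to equal sums, against -2.67 as reported. Its distance from the median of the other ADAM genes, -2.86 as reported, was -2.70 with gene totals, -1.68 with 1 added and -2.58 with Ensembl transcripts only, which leaves out Adam15. Scaling to equal sums shifts every log2 ratio, and so the median of all genes, by 0.20. It puts Adam17 at 0.11 instead of -0.09. No paired analysis was possible because the columns carry 1 value per group, and for the same reason no replicate could be left out. Depth is unknown.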

Other observations

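In the authors' deposited enrichment table, made with DAVID per its header, the ADAM genes appear on both sides. Adam9 is among the genes of 5 terms headed as upregulated, for example membrane and metal ion binding, and Adam10 of 1 such term, intracellular signal transduction, although neither gene has a transcript that the authors called as changed. The membrane term lists 401 genes, of which 350 have a transcript called higher, 19 one called lower and 47 none called. For intracellular signal transduction the table states 47 genes and lists 44, of which 10 have a transcript called higher and 34 none called. Adam12 appears in 1 term headed as downregulated, nucleoplasm, whose 220 listed genes all have a transcript called lower and of which 19 also have one called higher. No source used here says which gene list was entered.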
